A study of Mus musculus with 9 samples.

Results

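Albumin and 7 other plasma proteins made by hepatocytes were followed at the RNA level in mouse liver, across 3 groups of libraries. The 8 genes are Alb, Ttr, Rbp4, Ahsg, Fetub, Gc, Trf and Azgp1. They were chosen by name, under the heading of albumin and negative acute-phase plasma proteins, with earlier results of these data known. Each was matched by its Ensembl identifier among the 56719 genes counted in every library. All 8 passed the filter on low counts, which kept 17704 genes. Livers of C57BL/6J mice gave 9 libraries of polyadenylated RNA, 3 in each group. WT mice received phosphate-buffered saline (PBS) by gavage and then PBS into the tail vein. Con A mice received PBS by gavage and then 10 mg/kg of concanavalin A into the same vein, a lectin from jack beans that triggers T cells and an acute immune hepatitis. FMT-Con A mice were gavaged for 4 weeks with faecal material from mice that had gone through the Con A hepatitis model, and then received the same 10 mg/kg injection. No group received the faecal transfer without Con A, or faeces of healthy donors, so a difference of FMT-Con A from WT joins both treatments. The labels name the animals as female in one field and as male in another, and the age of the mice and the hours between injection and collection are not given in the sources used here. Nothing states that each library came from its own animal, so the p-values rest on a spread between libraries that may be technical.

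These proteins leave the hepatocyte through the secretory pathway and make up much of the protein of blood plasma. During an acute-phase response, cytokines such as interleukin-6 and interleukin-1 act on hepatocytes, which raise the RNA of defence proteins such as serum amyloid A, haptoglobin and fibrinogen while the output of albumin and several carrier proteins is lowered. Proteins whose plasma level drops in this way are called negative acute-phase reactants, and albumin and transthyretin are counted among them. The libraries measured liver RNA, not plasma protein, at a time after injection that is not given. On that measure only some of the 8 genes fell. In Con A livers Ttr, Rbp4 and Azgp1 fell, Trf and Ahsg rose, and Alb, Gc and Fetub did not pass the test, so the set is called below the 8 plasma protein genes.

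The WT libraries held 20513051 to 22770276 counts, the Con A libraries 21772376 to 25890947 and the FMT-Con A libraries 21580482 to 29466806. Levels below are in CPM, a gene's counts set to a common library size after scaling by trimmed means of M values (TMM), and an adjusted p is that of edgeR's quasi-likelihood test over all 17704 genes, with a call at 0.05. Transcripts of the mitochondrial genome took 19.6% to 22.4% of the WT counts, against 5.03% to 9.96% for Con A and 7.44% to 11.7% for FMT-Con A. The summed level of 24 skeletal muscle genes, in CPM of the library total, lay between 21.7 and 28.7 in WT. It was 6.52, 13.5 and 2011 in Con A libraries 1, 2 and 3, and 20247, 1989 and 19906 in the FMT-Con A libraries, so muscle RNA stood out in FMT-Con A 1 and 3 and, less, in FMT-Con A 2 and Con A 3. FMT-Con A 1 and 3 were also the most alike pair of all libraries, although they differed by more than sampling noise. Their median squared difference was 2.7 times that of counting alone, against 3.44 to 5.79 for WT pairs. It was 8.15 to 16.5 for Con A pairs, and 12.6 and 12.7 for FMT-Con A 2 against FMT-Con A 1 and 3. The 3 FMT-Con A libraries may therefore not be 3 independent samples. The summed level of 12 hepatocyte genes not among the 8 was 12585 to 12705 for WT, 15037 to 17894 for Con A, and 9624, 13315 and 9628 for FMT-Con A. All 12 were detected, as the label of liver tissue asks. Summed T and natural killer cell genes (11) lay between 8.76 and 10.2 for WT, 43.4 and 72.7 for Con A, and 20.9 and 24 for FMT-Con A. The sums of 10 neutrophil genes were 9.86 to 15.6, 243 to 459, and 228 to 330. In bulk liver RNA, fewer hepatocytes and less RNA per hepatocyte cannot be told apart.

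All 8 genes are protein coding, and positions are given on GRCm38 with GENCODE vM21 annotation. Alb (ENSMUSG00000029368), the main osmotic and carrier protein of plasma, lies on chr5:90460897-90476602, and Gc (ENSMUSG00000035540), the vitamin D-binding protein, lies on chr5:89417522-89457898 on the opposite strand. Both belong to the albumin gene family. Azgp1 (ENSMUSG00000037053) is on chr5:137981520-137990233. Ahsg (ENSMUSG00000022868, chr16:22891277-22899449) and Fetub (ENSMUSG00000022871, chr16:22918334-22939778) encode the related fetuins A and B and sit side by side. Rbp4 (ENSMUSG00000024990), the plasma retinol carrier, is on chr19:38116629-38125281, and Trf (ENSMUSG00000032554), transferrin, is on chr9:103204001-103230444. The antisense gene Gm30505 overlaps Ahsg and had 17 to 56 counts in a library. The strand setting of the counting is not given in the sources used here, so reads of that pair may not be separated. Trf shares exon sequence with the gene model Gm20425 on the same strand, which was not among the genes counted.

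The sequence just before a RefSeq start is shown for 4 of these genes: Ahsg, which rose after Con A, Rbp4, which fell, and the family members Alb, which fell in FMT-Con A, and Gc, which passed in no comparison. Each is the 250 bases upstream of a RefSeq start on GRCm38.p6, written 5′ to 3′ on the gene's own strand. Windows of 6 of the 8 genes were used. Ttr and Trf are not among them, so the match counts below do not cover those genes. The Ahsg window lies within the gene as GENCODE gives it above, because that annotation also holds an earlier start. Alb is chr5:90460620-90460869 on the plus strand, Gc chr5:89457899-89458148 on the minus strand, Ahsg chr16:22891765-22892014 on the plus strand and Rbp4, at the outer of its pair of starts, chr19:38125322-38125571 on the minus strand. Capitals mark matches, on either strand, to the letters CCAAT (the NF-Y box) and TTNNGNAA (a core shared by C/EBP and PAR bZIP factors).
Alb: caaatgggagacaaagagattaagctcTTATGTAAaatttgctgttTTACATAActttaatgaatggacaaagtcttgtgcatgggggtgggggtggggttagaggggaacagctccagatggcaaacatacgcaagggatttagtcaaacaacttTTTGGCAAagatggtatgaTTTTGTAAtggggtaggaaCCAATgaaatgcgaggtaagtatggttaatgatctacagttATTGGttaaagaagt
Gc: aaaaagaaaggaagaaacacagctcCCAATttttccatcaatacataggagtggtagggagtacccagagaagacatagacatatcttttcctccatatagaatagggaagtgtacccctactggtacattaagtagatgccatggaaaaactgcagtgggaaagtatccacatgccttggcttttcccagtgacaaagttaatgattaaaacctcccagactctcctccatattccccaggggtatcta
Ahsg: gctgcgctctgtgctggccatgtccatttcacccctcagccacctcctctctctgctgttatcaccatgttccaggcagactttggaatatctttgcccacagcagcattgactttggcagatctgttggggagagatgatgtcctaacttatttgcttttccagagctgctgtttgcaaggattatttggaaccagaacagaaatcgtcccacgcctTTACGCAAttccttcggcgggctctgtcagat
Rbp4: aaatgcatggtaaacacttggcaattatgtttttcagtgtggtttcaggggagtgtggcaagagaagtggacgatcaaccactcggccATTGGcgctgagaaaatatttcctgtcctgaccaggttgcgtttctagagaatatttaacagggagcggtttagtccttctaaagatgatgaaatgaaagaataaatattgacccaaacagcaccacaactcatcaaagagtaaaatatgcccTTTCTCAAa
The 8 windows of the members came from 6 genes, as Fetub and Rbp4 each gave a pair, so the counts are of windows and not of genes. CCAAT was in 5 of the 8 windows, and in 33.8% of the 32851 RefSeq windows of this length. The Alb window held it on both strands, 56 and 15 bases before the start, and the Gc window once, 225 bases before. The core TTNNGNAA was in 6 of 8 windows (36.8% of all) and the STAT letters TTCNNNGAA in 0 of 8 (7.02%). Alb held TTNNGNAA at 223, 204, 94 and 75 bases before its start, and the Gc window held none. The TTNNGNAA core can match both strands at 1 place, as it does 32 bases before the Ahsg start. The letters were chosen after the sequences had been seen, and a match describes the letters, not a bound site.

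Together the 8 genes took 6.36%, 5.57% and 7.34% of all counts in WT 1, 2 and 3. The shares were 6.2%, 5.96% and 6.76% for Con A, and 4.61%, 4.43% and 4.47% for FMT-Con A. The FMT-Con A libraries were below all others, while WT and Con A overlapped. With mitochondrial transcripts left out of the total, the shares were 7.17% to 9.12%, 6.58% to 7.12% and 4.79% to 5.17%, so on that base Con A lay below WT as well. The make-up of the set shifted in both injected groups. Alb supplied 61.1% to 64.4% of the 8 genes' counts in WT, but 47.4% to 53.7% with Con A and 39.3% to 47.8% with FMT-Con A. Trf supplied 8.78% to 9.56% in WT, 21.5% to 34.9% with Con A and 27.4% to 30.2% with FMT-Con A.

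**Figure D1:**
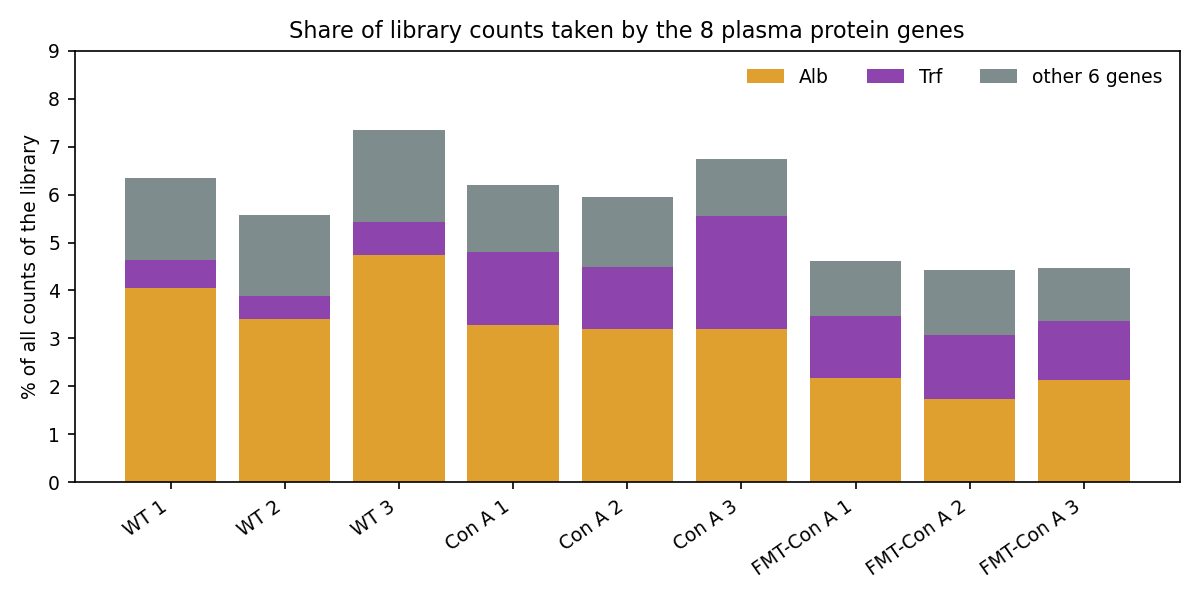
Percent of all counts of each library (vertical axis) taken by Alb, Trf and the other 6 plasma protein genes, as stacked bars for the 9 libraries. The 3 FMT-Con A bars reach 4.43% to 4.61% and are the lowest, and the Trf part is larger in every Con A and FMT-Con A library than in any WT library.

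To set the genes against each other, mean levels were divided by summed exon length. In WT the order in CPM per kilobase was Alb 16569 ± 2507, Ttr 4734 ± 209, Gc 2165 ± 176, Rbp4 1782 ± 175, Trf 1687 ± 294, Ahsg 1428 ± 135, Azgp1 828 ± 36 and Fetub 233 ± 20.9 (SD, n = 3). The range of Trf overlapped with those of Rbp4 and Ahsg, its neighbours in that order, and the other neighbours were apart. In Con A, Trf at 5658 ± 1805 per kilobase took the place after Alb (15123 ± 978), ahead of Ttr (2638 ± 673), Gc (2494 ± 114) and Ahsg (2186 ± 225). The range of Gc overlapped with those of Ttr and Ahsg. Rbp4 followed at 785 ± 206, Azgp1 at 527 ± 96.8 and Fetub at 216 ± 56.7, with Rbp4 and Azgp1 overlapping. In FMT-Con A the order was Alb 8222 ± 539, Trf 3720 ± 370, Gc 2061 ± 378, Ttr 1748 ± 230, Ahsg 1512 ± 305, Rbp4 783 ± 154, Azgp1 492 ± 48.7 and Fetub 279 ± 37.6, and Gc, Ttr and Ahsg again overlapped. Alb stayed the most abundant of the 8 per kilobase in all 3 groups. Among all genes by plain counts, Alb ranked 3, 3 and 2 in WT, 1 in each Con A library, and 2, 6 and 3 across FMT-Con A.

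**Figure D2:**
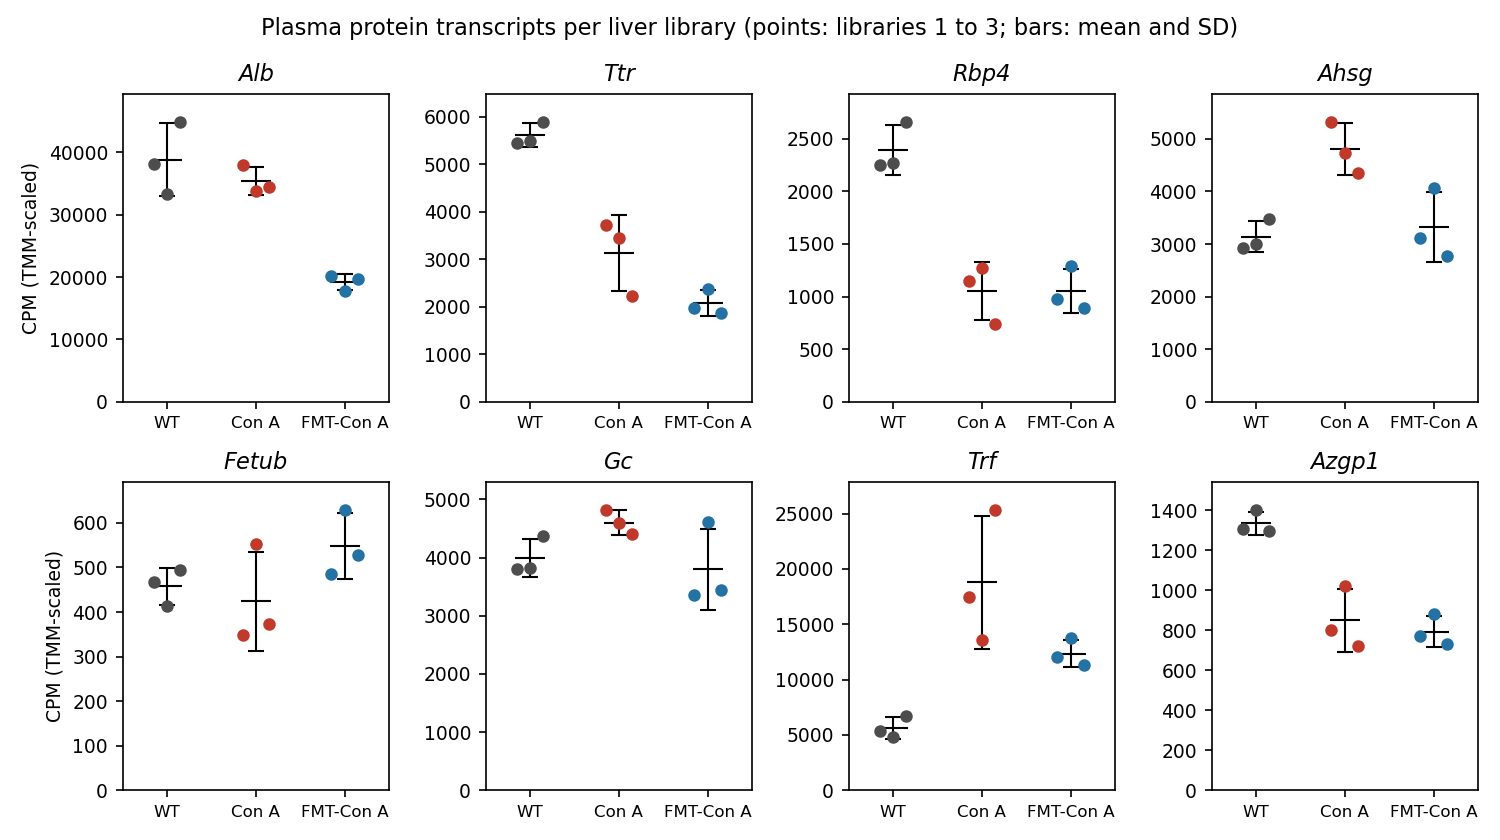
TMM-scaled CPM (vertical axes, starting at 0) of each of the 8 genes in the 9 libraries, with group means and SD as bars, n = 3. Alb is lowest in the 3 FMT-Con A libraries (17823 to 20196 CPM), Ttr and Rbp4 are highest in WT, and Trf is lowest in WT (4780 to 6679 CPM).

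The first comparison asks how an acute Con A injury changed the RNA of these plasma proteins. Of the 8 genes, 2 rose and 3 fell, beside 63.4% of all tested genes called in either direction (32.5% higher, 30.9% lower). The retinol and thyroid hormone carriers Rbp4 and Ttr and the lipid-mobilising glycoprotein Azgp1 fell 1.57-fold to 2.27-fold, while transferrin rose 3.35-fold and fetuin-A 1.53-fold. The median log2 fold change of the 8 was -0.12, against 0.01 for all genes. The groups did not overlap for 6 of the 8 genes, beside 69.8% of all tested genes, so neither count sets the 8 apart.

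Alb read 38169, 33277 and 44968 CPM in WT 1, 2 and 3 and 38043, 33818 and 34393 CPM in Con A. The Con A values fell inside the WT range. The log2 fold change was -0.13 (SE 0.21, 95% interval -0.59 to 0.33, edgeR adjusted p = 0.593), so a drop of up to 0.59 on the log2 scale stays within the interval. The spread of WT itself, 38805 ± 5871 CPM (SD, n = 3), was wider than that of Con A, 35418 ± 2291.

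Among the carriers of small molecules, Ttr binds thyroxine and also holds the retinol-binding protein in the circulation. The gene (ENSMUSG00000061808) lies on chr18:20665280-20674321. Ttr levels were 5454, 5488 and 5900 CPM in WT and 3716, 3451 and 2220 CPM in Con A. Every Con A library was below every WT library, with Con A 3 the lowest, and Ttr fell by 0.84 on the log2 scale (SE 0.22, edgeR adjusted p = 0.00679). Rbp4, which carries retinol from liver to tissues in a complex with Ttr, gave 2251, 2266 and 2665 CPM in WT and 1146, 1274 and 742 CPM in Con A. The groups were again apart with Con A 3 lowest, and Rbp4 fell by 1.18 (SE 0.23, edgeR adjusted p = 0.00141). The Rbp4 to Ttr count ratio, not corrected for length, was 0.413, 0.413 and 0.452 in WT and 0.308, 0.369 and 0.334 in Con A. Gc, the carrier of vitamin D and a scavenger of actin, gave 3797, 3817 and 4369 CPM in WT and 4819, 4589 and 4399 CPM in Con A. The Con A libraries were all above WT, the closest pair differing by little, and the log2 fold change of 0.20 (95% interval -0.20 to 0.61) did not pass (edgeR adjusted p = 0.343).

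Trf, the iron carrier of plasma, read 5347, 4780 and 6679 CPM in WT and 17480, 13551 and 25320 CPM in Con A. All Con A libraries were above WT, and Con A 3 was the highest of the 9 libraries. Trf rose by 1.75 on the log2 scale (SE 0.26, 95% interval 1.16 to 2.34, edgeR adjusted p = 0.000284). Its count ratio to Alb went from 0.14, 0.144 and 0.149 in WT to 0.459, 0.401 and 0.736 in Con A, and its rank among all genes by counts from 15 to 19 in WT to 2 to 8.

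The fetuins are cystatin-type proteins of plasma. Fetuin-A binds calcium phosphate and limits calcification, and fetuin-B inhibits a protease of the egg coat and is needed for female fertility. Ahsg gave 2928, 3004 and 3477 CPM in WT and 5331, 4732 and 4348 CPM in Con A, with no overlap, and rose by 0.61 on the log2 scale (SE 0.19, edgeR adjusted p = 0.0186). That call was lost without WT 1 (edgeR adjusted p = 0.0865), WT 2 (0.078) or Con A 1 (0.0729). Fetub gave 467, 413 and 494 CPM in WT and 349, 552 and 372 CPM in Con A, where Con A 2 lay above all WT libraries and the other pair below them. Its log2 fold change was -0.11 (95% interval -0.55 to 0.33, edgeR adjusted p = 0.649). The Fetub to Ahsg count ratio was 0.138 to 0.159 in WT and 0.0655 to 0.117 in Con A.

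Azgp1, zinc-alpha2-glycoprotein, has a fold like that of MHC class I molecules and promotes fat breakdown. Its levels were 1303, 1400 and 1296 CPM in WT and 802, 1022 and 721 CPM in Con A, with Con A 3 again the lowest. The groups did not overlap, and Azgp1 fell by 0.65 on the log2 scale (SE 0.17, edgeR adjusted p = 0.00711). Con A 3, the library with 2011 CPM of muscle genes, held the lowest value of Ttr, Rbp4 and Azgp1 and the highest of Trf within its group. The part of muscle RNA in these values was not tested. Leaving out the listed muscle genes kept 5 members called. That fit keeps all other muscle transcripts in the totals, so it cannot measure a dilution of liver RNA.

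**Figure D3:**
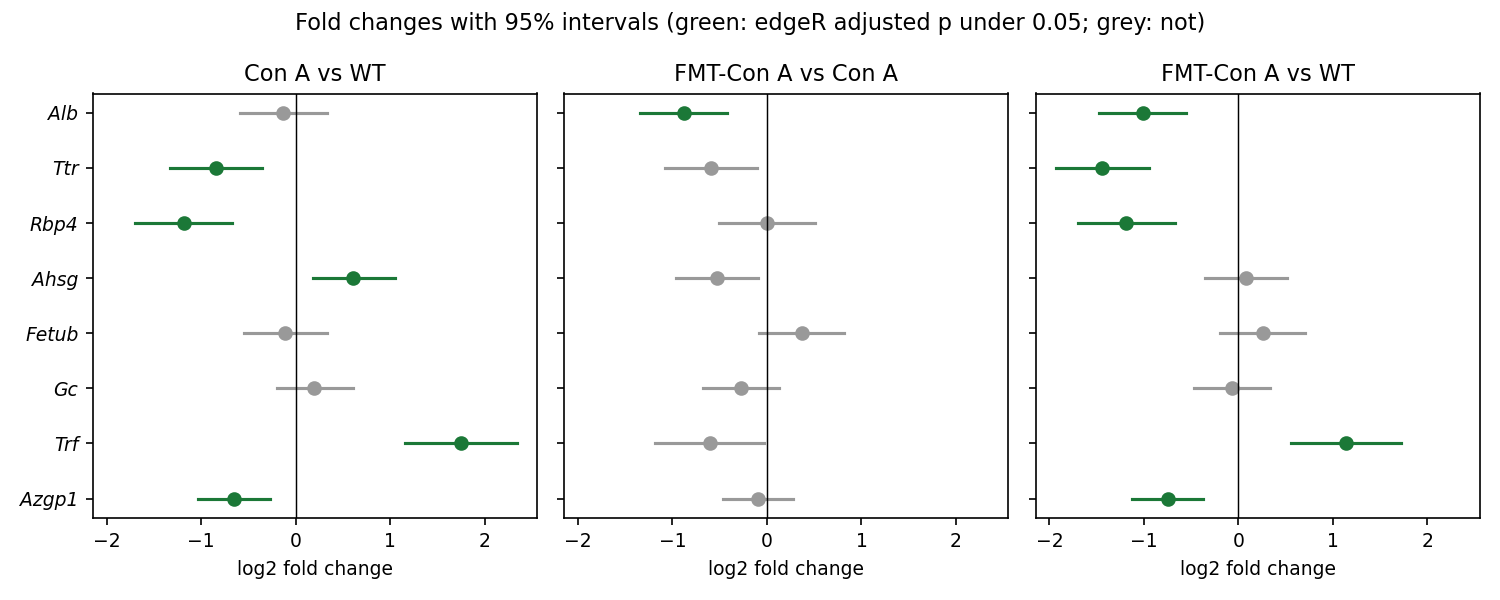
Log2 fold change (horizontal axes) with 95% interval for each gene in the 3 comparisons, from edgeR on 9 libraries. Green marks an adjusted p under 0.05. In Con A against WT, Trf lies at 1.75 and Rbp4 at -1.18, and in FMT-Con A against Con A Alb alone is green, at -0.88.

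The second comparison sets livers with a preceding faecal transfer against livers given PBS by gavage before the same injection. Without a group given the transfer alone, a changed response to Con A and an effect of the transfer itself cannot be told apart. Alb was the 1 gene of the 8 called, lower in FMT-Con A, beside 16.8% of all tested genes (6.26% higher, 10.6% lower). The groups did not overlap for 2 of the 8, Alb and Ahsg, beside 32.7% of all genes. The median log2 fold change of the 8 was -0.40, against -0.01 over all genes. Under scaling by library totals alone, the calls over all genes turned from 1108 higher and 1873 lower to 2124 higher and 1122 lower, with the median of all genes at 0.18.

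Alb levels in FMT-Con A were 20196, 17823 and 19750 CPM, against 33818 to 38043 CPM in Con A. All 3 libraries were below every Con A library. FMT-Con A 2, with 1989 CPM of muscle genes, and Con A 3, with 2011, read 17823 and 34393 CPM of Alb. Alb fell by 0.88 on the log2 scale, 1.84-fold (SE 0.21, 95% interval -1.34 to -0.42, edgeR adjusted p = 0.0221). With the listed skeletal muscle genes left out the value was -0.85 (edgeR adjusted p = 0.0391). That fit keeps all other muscle transcripts, so it cannot measure a dilution of liver RNA. Over 19 alternatives the log2 fold change stayed between -0.99 and -0.68, and 13 kept the call. It was lost without Con A 1 (edgeR adjusted p = 0.1), without FMT-Con A 1 (0.0958), without FMT-Con A 3 (0.0864), when only the 2 groups compared were fitted (0.0566), and with FMT-Con A 1 and 3 summed (0.0888) or both left out (0.234). The hepatocyte sums given above were 9624, 13315 and 9628 CPM in FMT-Con A, and 5 of the 12 hepatocyte genes were called lower and 0 higher. FMT-Con A 2 had the lowest Alb and the highest hepatocyte sum of its group. The part of cell composition in the Alb difference was not tested.

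The other carriers did not pass in this comparison. Ttr gave 1976, 2381 and 1863 CPM in FMT-Con A, where FMT-Con A 2 lay above Con A 3 and below the other pair, and its log2 fold change was -0.59 (edgeR adjusted p = 0.0844). Rbp4, at 975, 1286 and 895 CPM, had a mean of 1052 ± 206 CPM against 1054 ± 277 in Con A (SD, n = 3), and the 95% interval of the log2 difference ran from -0.51 to 0.51 (edgeR adjusted p = 0.995). Gc, at 3353, 4607 and 3447 CPM, overlapped with Con A through FMT-Con A 2 (log2 fold change -0.28, edgeR adjusted p = 0.309). Trf, at 12030, 13708 and 11312 CPM, also overlapped through FMT-Con A 2, with a log2 fold change of -0.60 (95% interval -1.18 to -0.03, edgeR adjusted p = 0.13). The Rbp4 to Ttr count ratio was 0.493, 0.54 and 0.48, above every WT and Con A library.

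Neither fetuin passed in this comparison. Ahsg gave 3113, 4070 and 2781 CPM in FMT-Con A, all below Con A, with a log2 fold change of -0.53 (95% interval -0.96 to -0.10, edgeR adjusted p = 0.0839). Fetub gave 485, 629 and 528 CPM, with FMT-Con A 2 the highest of the 9 libraries, and a log2 fold change of 0.37 (95% interval -0.08 to 0.81, edgeR adjusted p = 0.221). Their ratio was 0.156, 0.155 and 0.19, above the Con A range. Azgp1, at 770, 880 and 728 CPM, lay within the Con A range (log2 fold change -0.10, edgeR adjusted p = 0.714). With DESeq2, Ttr (DESeq2 adjusted p = 0.0166), Ahsg (0.0139) and Trf (0.0464) were also called lower, beside Alb. The share of all genes that DESeq2 called in this comparison is not given here, so these calls do not set the 8 apart.

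The third comparison sets the injected and transferred livers against WT, and it shares the WT libraries with the first and the FMT-Con A libraries with the second. Of the 8 genes, 4 fell and 1 rose, beside 59.0% of all genes called (31.2% higher, 27.9% lower), and 5 did not overlap (69.1% of all genes). The median was -0.41, against 0.03 over all genes. Alb fell 2.02-fold (-1.01 on the log2 scale, edgeR adjusted p = 0.00226). Ttr fell 2.71-fold (-1.44, edgeR adjusted p = 0.000402). Rbp4 fell 2.28-fold (-1.19, edgeR adjusted p = 0.00169) and Azgp1 1.68-fold (-0.75, edgeR adjusted p = 0.00385). Trf rose 2.2-fold (log2 fold change 1.14, SE 0.26, edgeR adjusted p = 0.004). Every FMT-Con A library lay on the same side of all WT libraries for each of these 5 genes. Ahsg (0.08, 95% interval -0.35 to 0.51), Fetub (0.26, -0.19 to 0.70) and Gc (-0.07, -0.47 to 0.33) did not pass, with edgeR adjusted p of 0.73, 0.286 and 0.752. With FMT-Con A 1 and 3 both left out, a choice made after seeing the data, 3 members were called, since Rbp4 (edgeR adjusted p = 0.064) and Azgp1 (0.0988) no longer passed.

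The positive acute-phase genes moved as a group, and give the setting in which the 8 genes were measured. All 23 of the list rose in Con A against WT, with a median log2 fold change of 3.54, against -0.12 for the 8. Lcn2, an iron-siderophore binding protein, went from 13.2 ± 1.28 to 6789 ± 731 CPM (SD, n = 3), and Saa2, a serum amyloid A, from 19.9 ± 1.46 to 9374 ± 2159 CPM. Their log2 fold changes were 9.01 (edgeR adjusted p = 6.9e-08) and 8.88 (edgeR adjusted p = 1.1e-07). Between FMT-Con A and Con A, 2 of the 23 fell and 21 did not pass (median -0.04). The 2 were Hamp, which encodes the iron hormone hepcidin (-0.98, edgeR adjusted p = 0.0149), and Cp, the plasma copper oxidase ceruloplasmin (-0.97, edgeR adjusted p = 0.0159). Against WT, 22 of 23 were higher in FMT-Con A, with a median of 3.42.

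Of 14 other plasma proteins listed as falling in inflammation, 6 rose, 3 fell and 5 did not pass in Con A (median -0.18), beside 32.5% of all genes called higher and 30.9% lower. Serpina7, the thyroxine-binding globulin and like Ttr a carrier of thyroid hormone, rose from 25.4 ± 7.28 to 244 ± 15.8 CPM (SD, n = 3; log2 fold change 3.27, edgeR adjusted p = 1.5e-06). Selenop, the selenium carrier, rose by 1.98 (edgeR adjusted p = 8.41e-05). Igfals, the acid-labile subunit that holds insulin-like growth factors in plasma, fell by 3.07 (edgeR adjusted p = 2.82e-05), and Apoa1, the main protein of high-density lipoprotein, fell by 0.95 (edgeR adjusted p = 0.0238). Between FMT-Con A and Con A, 0 rose, 2 fell and 12 did not pass. The 2 were Afm, the vitamin E-binding afamin (-0.94, edgeR adjusted p = 0.0159), and Itih2, a hyaluronan-binding inhibitor chain (-0.86, edgeR adjusted p = 0.0165). Against WT, FMT-Con A had 3 of the 14 higher and 6 lower.

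Afm is also the closest family member of Alb, beside Afp, the fetal albumin. Afm levels were 191 ± 4.36 CPM for WT, 169 ± 41.9 for Con A, and 88 ± 17.9 for FMT-Con A (SD, n = 3). It did not pass in Con A against WT (-0.18, edgeR adjusted p = 0.457), and fell in FMT-Con A against WT (-1.12, edgeR adjusted p = 0.00108). In FMT-Con A, Alb and Afm each fell against both other groups, while Gc passed in no comparison. Afp was low throughout, at 4.05 ± 0.374, 1.07 ± 0.368 and 0.862 ± 0.117 CPM. It fell by 1.90 in Con A and by 2.23 in FMT-Con A against WT (edgeR adjusted p = 0.000253 and 0.000131), and did not pass between the injected groups (-0.33, edgeR adjusted p = 0.466). Of the kininogens and Hrg, relatives of the fetuins near them on chromosome 16, Kng2 rose in Con A (0.88, edgeR adjusted p = 0.00104), while Kng1 and Hrg did not pass. In all, 1 of the 5 family neighbours rose and 1 fell in Con A, and 1, Afm, fell in FMT-Con A against Con A.

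Of 22 transcription factors of the liver, 9 rose, 10 fell and 3 did not pass in Con A against WT (median -0.10). Cebpd, a factor of the acute-phase response, rose from 3.02 ± 1.57 to 63 ± 3.96 CPM (SD, n = 3; 4.39, edgeR adjusted p = 1.84e-06) and Stat3, which relays interleukin-6, rose by 2.63 (edgeR adjusted p = 6.98e-06). Hlf, a circadian PAR bZIP factor, fell by 3.26 (edgeR adjusted p = 2.42e-07). Hnf4a rose by 0.70 (edgeR adjusted p = 0.0107) and Cebpb by 1.07 (edgeR adjusted p = 0.00934), while Cebpa did not pass (-0.05, edgeR adjusted p = 0.797). Dbp, named for binding the D site of the Alb promoter, fell in both steps. Its levels were 13.6, 14.8 and 28.6 CPM for WT, 5.08, 11.2 and 4.77 CPM for Con A, and 2.3, 2.09 and 1.83 CPM for FMT-Con A, with no overlap between neighbouring groups. Dbp fell by 1.44 in Con A against WT (edgeR adjusted p = 0.00675) and by 1.75 in FMT-Con A against Con A (edgeR adjusted p = 0.0189). The PAR bZIP factors Tef (-0.16, edgeR adjusted p = 0.443) and Hlf (0.00, edgeR adjusted p = 0.99) did not pass in FMT-Con A against Con A. A part of Dbp in the level of Alb was not tested. Foxa2, a pioneer factor of hepatocytes, was 39.7 ± 9.24 CPM in WT. It fell to 5.22 ± 1.24 CPM in Con A (-2.93, edgeR adjusted p = 2.9e-06) and was 17.5 ± 1.2 CPM in FMT-Con A (SD, n = 3). That was higher than in Con A by 1.74 (edgeR adjusted p = 0.00218) and lower than in WT (-1.18, edgeR adjusted p = 0.00068). The second step called 2 factors higher and 4 lower, with Hnf4a (-0.16, edgeR adjusted p = 0.603), Cebpa (-0.33, edgeR adjusted p = 0.17) and Cebpb (-0.15, edgeR adjusted p = 0.75) not passing. Against WT, FMT-Con A had lower Dbp (-3.19, edgeR adjusted p = 0.00012). Hnf4a and Cebpb were higher by 0.54 and 0.92 (edgeR adjusted p = 0.0364 and 0.0207), and Cebpa did not pass (-0.38, edgeR adjusted p = 0.061).

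The cytokines that drive the acute-phase response were higher after Con A, with 12 of 15 cytokine and receptor genes up, 2 down and a median of 3.29. Il1b rose from 2.61 ± 2.18 to 19.6 ± 3.94 CPM (SD, n = 3; 2.90, edgeR adjusted p = 0.00039). Il6 had 3 counts over the WT libraries and 122 over the Con A libraries, a ratio of 42.8 per scaled library with a 95% counting interval of 14.3 to 210. FMT-Con A had 47 counts, a ratio of 13.3 to WT (4.29 to 66.9), and Il6 was lower there than in Con A (edgeR adjusted p = 0.0308). Il1rn, the interleukin-1 receptor antagonist, rose from 1.69 ± 0.497 to 671 ± 167 CPM (edgeR adjusted p = 9.82e-08). Between the injected groups 4 fell and 0 rose. Il1rn, at 136 ± 3.84 CPM, fell by 2.30 (edgeR adjusted p = 0.00149), while Il1b did not pass (-1.03, edgeR adjusted p = 0.117) and stayed above WT (1.87, edgeR adjusted p = 0.00543).

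**Figure D4:**
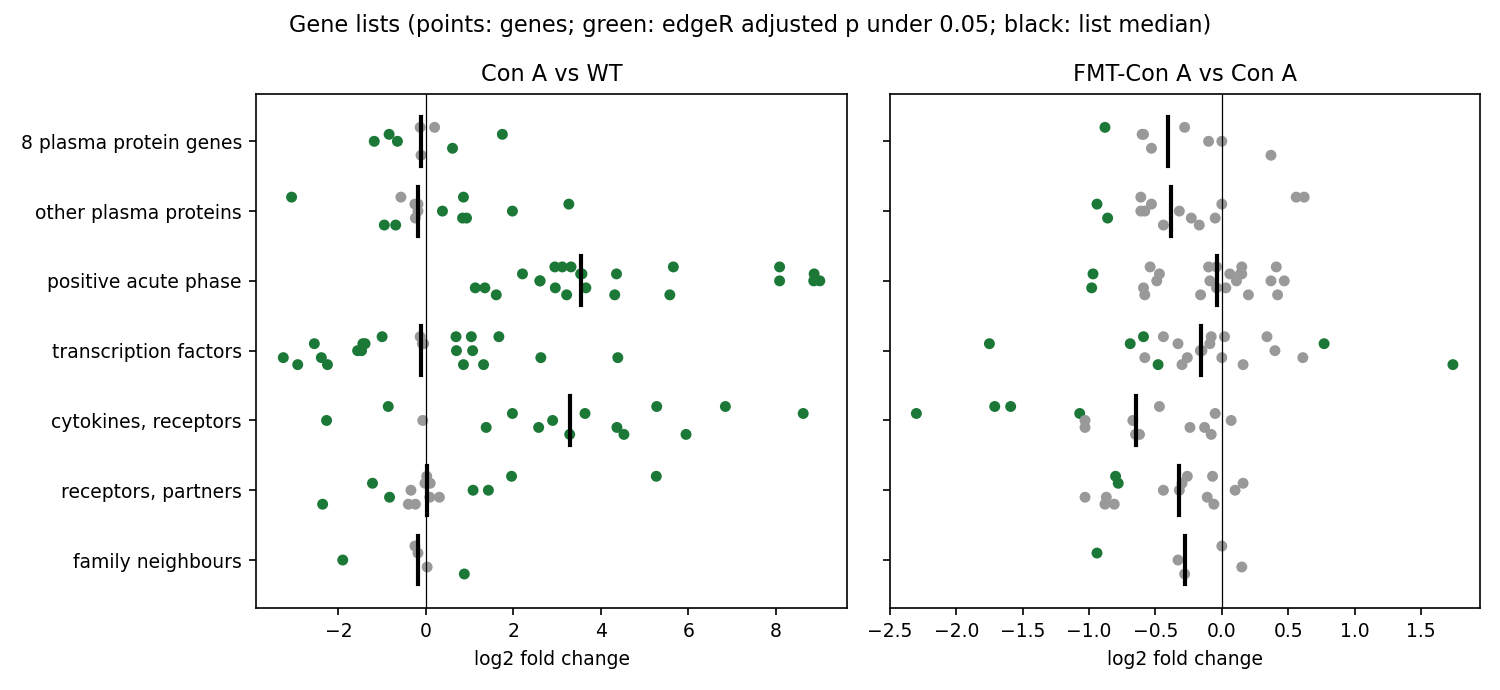
Log2 fold change (horizontal axes) of each gene of the 8 plasma protein genes and of 6 other lists, in Con A against WT and in FMT-Con A against Con A, with green for an edgeR adjusted p under 0.05 and a black bar for the list median. The positive acute-phase genes sit at a median of 3.54 in the first panel and -0.04 in the second, and the 8 plasma protein genes at -0.12 and -0.40.

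Over the 9 libraries, genes with a similar course were sought among 2628 protein-coding genes with a mean of at least 50 CPM, by Pearson's r of log2 CPM. The libraries share their groups and this is a description. Ttr was closest to Otc (0.993), a urea cycle enzyme, Akr1c14 (0.992) and Hsd17b6 (0.991), both steroid-metabolising enzymes. Rbp4 was closest to Apoa2 (0.993), a high-density lipoprotein protein, Tpmt (0.992) and Cmah (0.990), and Azgp1 to Apoc1 (0.989), Echdc2 (0.986) and Apoc3 (0.985). Trf ran with Slc38a10 (0.991) and Ap2b1 (0.987). The genes closest to Alb were Arap1 (0.968), C130074G19Rik (0.943) and Sgpl1 (0.942). Ahsg was nearest to Akr1a1 (0.973), F12 (0.966), coagulation factor XII, and Cmpk1 (0.962), and Gc to Mbl2 (0.974), a mannose-binding lectin, Acp5 (0.951) and Nipsnap3b (0.945). Fetub had the loosest matches, H1f0 (0.962), Dctn2 (0.909) and Mrpl38 (0.901).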

How the data were processed

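Read counts per gene were deposited by the authors, 1 file of whole numbers for each of 9 libraries, without normalisation. CASAVA, HISAT2 and featureCounts with GRCm38 (mm10) were used, per the submitters' processing notes; their versions, the annotation release, the strand setting and the treatment of reads mapping to several places are not given in the sources used here. RNA was extracted with Trizol and polyadenylated RNA was sequenced from both ends on an Illumina instrument, per the labels' protocols. Of 55359 Ensembl identifiers, 52083 matched a symbol; 1360 numbered models held 1.43% to 1.98% of counts.

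The 9 libraries entered 1 edgeR 4.0.16 model (R 4.3.3): filterByExpr (minimum count 10, total 15) kept 17704 genes, followed by TMM scaling and the two-sided quasi-likelihood test on group alone, with Benjamini-Hochberg adjustment. SE is the fold change divided by the square root of F. CPM is scaled by TMM (factors 0.865 to 1.08), except for marker sums. The script was tested on simulated data. Alternatives were DESeq2 1.42.0, other scalings, no filter, subsets of libraries and a replicate block.

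The 8 genes and all lists were chosen with earlier results of these data known. Named genes were the 8, up to 4 called genes per list with the largest change and at least 1 CPM, 9 regulators and relatives given whatever their p, and the 3 genes most similar to each member. A few genes that the rule names are not reported here.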

Additional observations from a re-analysis of the deposited data

How the results depend on the processing

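Of 456 pairs of a member's fold change and an alternative, 414 kept direction and side of the threshold, 11 lost and 6 gained a call, and 25 changed sign, all of them uncalled under the main settings, with values of -0.08 to 0.29. The cause of the changes was not tested.

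For FMT-Con A against Con A, the call count went from 2981 genes to 1156 with only the 2 groups compared, 766 with FMT-Con A 1 and 3 summed, 99 with both left out (chosen after seeing the data), and 664 to 4053 leaving out 1 library. Members called went from 1 to 4 with DESeq2, whose count over all genes is not given here. They went to 0 with only the 2 groups compared, 0 summed, and 0 to 2 leaving out 1 library. In FMT-Con A against WT, leaving both out gave 6957 genes in place of 10449 and 3 members in place of 5. Leaving out 1 library gave 9937 to 12101 genes and 4 to 5 members in Con A against WT, and 9060 to 11349 genes in FMT-Con A against WT. Scaling by library totals moved the median of all genes to -0.19 in Con A against WT (4845 higher and 6457 lower, against 5749 and 5470) and to 0.18 in FMT-Con A against Con A.

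Signs changed for 5 members. Between FMT-Con A and Con A, Rbp4 read 0.18 with library totals, 0.01 unfiltered, 0.03 without muscle genes, 0.03 with only the 2 groups compared, 0.00 with the replicate block, 0.09 summed, 0.29 with both left out, and -0.20 to 0.18 leaving out 1 library. Azgp1 read 0.09 with library totals, 0.05 with both left out and -0.20 to 0.07 leaving out 1 library, and Gc 0.00 with both left out. Against WT, FMT-Con A had Gc at 0.02 summed, 0.21 with both left out and -0.23 to 0.03 leaving out 1 library, and Ahsg at -0.08 to 0.21 leaving out 1 library. Fetub in Con A against WT read -0.35 to 0.01 leaving out 1 library. Calls gained in FMT-Con A against Con A were Fetub without Con A 2 (0.62, edgeR adjusted p = 0.0344), Ttr without Con A 3 (-0.79, edgeR adjusted p = 0.0267) and Ahsg without FMT-Con A 2 (-0.69, edgeR adjusted p = 0.0206), beside those of DESeq2.

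Library numbers share only a number: same-numbered libraries correlated between -0.22 and 0.34 in their deviations from group means, and not every library correlated best with its own number. With the replicate block, 11093, 2663 and 10207 genes and 5, 1 and 5 members were called. With 3 libraries a group the intervals stay wide, so members that did not pass are not shown to be equal.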

Other observations

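The proteins that receive, store or act downstream of these carriers were measured in the same livers, as a list of 19 genes. In Con A against WT, 4 of the 15 tested rose, 3 fell and 8 did not pass (median 0.02, against 0.01 over all genes). On the retinol side of Rbp4, Stra6l, a liver receptor for retinol-binding protein, rose from 112 ± 27.8 to 302 ± 56.8 CPM (SD, n = 3; edgeR adjusted p = 0.000263). Lrat, which esterifies retinol in stellate cells, fell from 10.5 ± 3.31 to 2.02 ± 0.975 CPM (edgeR adjusted p = 0.00026), and was 1.1 ± 0.235 CPM in FMT-Con A. Lrat is also 1 of 8 stellate cell markers, of which 2 fell, 0 rose and 6 did not pass in this comparison. Stra6 had 0 or 1 count in each library.

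On the iron side of Trf, the transferrin receptor Tfrc rose from 19.1 ± 3.08 to 74.4 ± 9.86 CPM in Con A and fell to 42.9 ± 8.43 CPM in FMT-Con A (SD, n = 3; edgeR adjusted p = 0.0193 against Con A), while Tfr2, the sensor of iron-loaded transferrin, did not pass in any comparison (286 ± 25.5, 306 ± 37.2 and 341 ± 25.6 CPM). On the vitamin D side of Gc, the receptor Vdr went from 0.106 ± 0.107 to 4.24 ± 0.768 CPM (edgeR adjusted p = 2.57e-05) and was 4.05 ± 1.76 CPM in FMT-Con A. Its WT values, 0.229, 0.0468 and 0.0418 CPM, rest on very few reads. The size of the rise in Con A is thus loosely set (95% interval 4.04 to 6.50 on the log2 scale). On the thyroid hormone side of Ttr, the receptor Thrb fell from 44.2 ± 3.74 to 19 ± 2.98 CPM (edgeR adjusted p = 4.25e-05). B2m, the light chain of the receptor that rescues albumin from breakdown, was 2354 ± 34.9, 2315 ± 300 and 1353 ± 206 CPM, lower in FMT-Con A than in Con A (edgeR adjusted p = 0.0181), and its heavy chain Fcgrt did not pass in any comparison. In FMT-Con A against Con A, Tfrc and B2m were the 2 called of the 15, both lower.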
